A study of Mus musculus with 4 samples.

Results

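Untreated mouse microglia labelled Bid-/- were compared here with untreated wild-type (WT) microglia, gene by gene, as the log2 value of 1 array minus the log2 value of the other. These are 2 of the 4 arrays of the series. The arrays held 19938 genes whose probe set carried a single gene symbol, and 10909 of them were tested, meaning that the higher of both arrays reached 4.26, the median of the 4-array means of all probe sets. All 4 arrays measured total RNA of microglia on the Affymetrix Mouse Gene 1.0 ST platform, 1 array per group and with no replication, in a study of how Bid bears on the inflammatory profile of these cells. The WT array without treatment is labelled strain C57Bl, genotype wildtype and agent none. The array set against it is labelled genotype Bid-/-, KO and agent none, with no strain named. The other pair carries the same genotype labels and was given lipopolysaccharide (LPS), a bacterial cell wall component, for 3 h. The sources used here name no sex, age, number of animals or cultures behind an array, and no construction of the Bid allele.

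Microglia are the resident macrophages of the brain. They sense bacterial products through Toll-like receptors, of which TLR4 recognises LPS, and answer with cytokines, chemokines and enzymes of inflammation. Bid is a BH3-only member of the Bcl-2 family, best known as a substrate of caspase-8 whose truncated form carries death receptor signals to mitochondria.

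In what follows a difference is the log2 level on the array labelled Bid-/- minus that on the WT array, so that 1 is a 2-fold difference and 0.58 a 1.5-fold difference. With 1 array a side, a difference has no replicate check and no p-value, and "higher" or "lower" describes these arrays, not the genotypes. Strain, sex and culture cannot be told apart from the genotype label. In bulk RNA, fewer cells of a type and less RNA per cell cannot be told apart either.

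Both untreated arrays were close to each other. Pearson's r over all 28944 probe sets was 0.996, and the median difference over the 10909 genes tested was 0.01 with an SD of 0.213. The difference lay within 0.2 of 0 for 76.6% of the genes, and the interquartile range ran from -0.10 to 0.13. The agreement of separate probe sets gives a measure of error within these arrays: for 634 genes with 2 probe sets at the floor, both estimates of the difference were apart by a median of 0.08, the gap had an SD of 0.175, and 95% of the gaps were under 0.38. No gene had a gap of 1 or more, and 7 had a gap of at least 1.5-fold. This covers the probes, not the culture or the RNA preparation.

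Pan-myeloid markers, and most microglia markers measured, reached the floor on both arrays. All 6 pan-myeloid markers reached the floor on both, with a summed log2 level of 62.2 on the WT array and 61.9 on the array labelled Bid-/-. Of 11 microglia markers measured, 9 reached the floor on both, with sums of 77.1 and 77.2, and Siglech and Gpr34 were below it. The purinergic receptor P2ry12, a defining microglia marker, was only just above the floor, at 4.33 and 4.38. Of 6 monocyte and border macrophage markers measured, 2 reached the floor on both arrays, with sums of 27.7 and 28.0. These were Ms4a7 at 9.60 and 9.31 and F13a1 at 4.38 and 4.89, while Mrc1, Cd163, Lyve1 and Ccr2 were below it. None of the 6 defining neuron markers or 5 defining neutrophil markers reached the floor on either array; of the longer neuron list 1 gene did, Gad1, at 4.48 and 4.67. Of 6 defining astrocyte markers 2 reached it on the WT array and 1 on the array labelled Bid-/-, with summed log2 levels of 24.6 and 24.8. Gfap, Aqp4, Slc1a2 and S100b were below it, and the connexin Gja1 was at 4.84 and 5.29. Of 5 oligodendrocyte lineage markers measured 3 and 4 reached the floor, with sums of 22.45 and 22.46, and myelin basic protein (Mbp) was at 5.79 and 5.97.

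Bid itself did not separate the genotypes. Its level without LPS was 5.69 on the WT array and 5.53 on the array labelled Bid-/-, a difference of -0.16. Of the 10909 genes tested, 1670 (15.3%) had a difference as low or lower. With LPS the levels were 5.02 and 5.97, so that Bid was higher by 0.95 on the array labelled Bid-/-. No source used here places the probes relative to what was deleted. The label was therefore not checked by its target, and the arrays are called by their label throughout.

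At least 2-fold higher on the array labelled Bid-/- were 39 genes, 0.358% of those tested, and at least 2-fold lower were 8 genes, 0.0733%, of which a stricter floor of 6 left 5. At 1.5-fold the counts were 158 (1.45%) and 48 (0.44%). Of the 39 higher genes, 11 belonged to the matrix, fibroblast and mural cell lists and 10 to the lists of cytokines, chemokines, inflammatory enzymes and metalloproteinases, while 13 belonged to no list. Among the 39, 6 genes (Timp1, Depp1, Kcnma1, Dio2, Nid1 and Fgf7) were below the floor on the WT array, and among the 8 lower genes Cd209g and Cd5l were below it on the array labelled Bid-/-. Those 8 genes entered only through the array on which they were higher. Just outside the 2-fold line lay the growth factor receptor Pdgfra at 0.99 and the Trem family member Treml4 at 0.98 on the higher side, and the potassium channel Kcnn4 at -0.98 on the lower side.

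**Figure D1:**
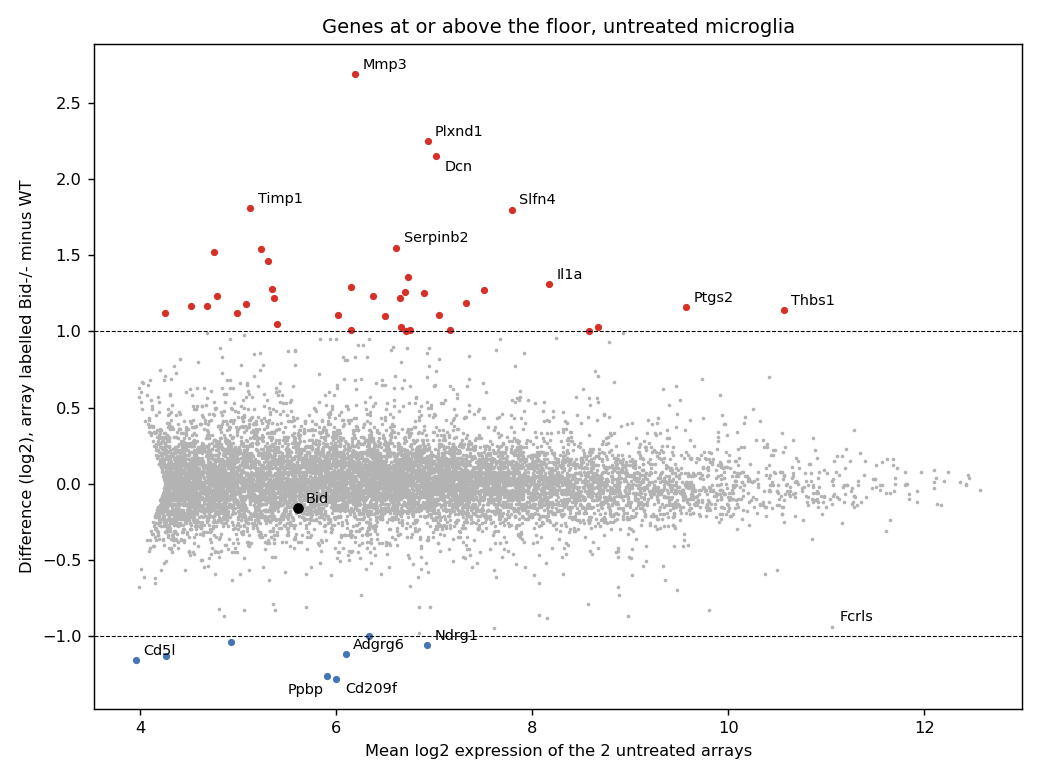
The difference without LPS (vertical axis, log2, array labelled Bid-/- minus WT) is plotted against the mean log2 level of both untreated arrays (horizontal axis), 1 point per gene tested. Red points are the 39 genes at least 2-fold higher and blue points the 8 at least 2-fold lower, the dashed lines mark 2-fold, and the black point is Bid at -0.16, inside the cloud of grey points.

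Matrix and stromal genes were the listed group with the most members among the genes at least 2-fold higher. In the list of extracellular matrix and fibroblast genes, 26 of 30 members were tested and the median difference was 0.50, against 0.01 over all genes. At least 1.5-fold higher were 12 of the 26, beside 1.45% of all genes, and 1 was at least 1.5-fold lower, beside 0.44%. With a stricter floor of 6, again set on the higher of both arrays, the median of the 12 members left was 1.085. That median is raised by the filter. Dcn, Tnc, Bgn, Fn1, Col1a1, Col3a1 and Col1a2 reached 6 on the array labelled Bid-/- alone and so had to be above 0. Pdgfra and Thbs2 reached the floor of 4.26 on the array labelled Bid-/- alone, and of all 30 members 25 were above 0. Decorin (Dcn), a small collagen-binding proteoglycan, was at 5.94 on the WT array and 8.09 on the array labelled Bid-/-, and at 7.31 and 7.44 on the corresponding arrays with LPS. The WT array without LPS was thus the low one of the 4, and the difference was 2.15 without LPS and 0.13 with it. Biglycan (Bgn), a related proteoglycan, had levels of 4.57 and 6.03 without LPS and 5.50 and 5.87 with it. The matrix glycoprotein Sparc stood at 6.07 and 7.33 without LPS and at 6.88 and 6.86 with LPS, so its difference of 1.26 had no counterpart in the other pair (-0.02).

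Tenascin C (Tnc), a glycoprotein of remodelling tissue, behaved otherwise: it was at 4.46 and 6.00 without LPS and at 5.10 and 5.98 with LPS, higher by 1.54 and 0.88. Thrombospondin 1 (Thbs1), which binds matrix and cell surface receptors and activates latent TGF-beta, was at 10.00 and 11.14, then at 10.46 and 11.43. Tnc and Thbs1 were the stromal genes of the 2-fold group that were also at least 1.5-fold higher with LPS, 2 of 11. Fibronectin (Fn1) was higher by 1.23 without LPS and 0.51 with it, and the follistatin-like secreted protein Fstl1 by 1.22 and 0.05. For the collagen chaperone Serpinh1 the values were 1.12 and -0.28, and for Igfbp7, an insulin-like growth factor binding protein, 1.03 and -0.14. The fibrillar collagens lay below 2-fold, with Col1a1 at 0.91, Col3a1 at 0.87 and Col1a2 at 0.54. Igfbp4, another binding protein of this list, was lower in both pairs, by -0.70 and -0.71.

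Contractile and mural cell genes had a median difference of 0.44 over the 10 of 16 members tested. At least 1.5-fold higher were 4, beside 1.45% of all genes, and 0 were lower, beside 0.44%. Over the 4 members at a stricter floor of 6 the median was 0.80. Tpm2 reached the floor on the array labelled Bid-/- alone, and of all 16 members 12 were above 0. The matricellular proteins Ccn1 and Ccn2, known targets of mechanical and TGF-beta signalling, were higher by 1.36 and 1.11 without LPS, and stood at 0.05 and -0.44 with it. Transgelin (Tagln), an actin-binding protein of smooth muscle, was at 5.10 and 5.76 without LPS and at 6.70 and 5.27 with LPS. Smooth muscle actin (Acta2) was at 6.26 and 6.75, then at 7.15 and 6.25. For both genes the array labelled Bid-/- was the higher one without LPS and the lower one with it.

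The defining markers of fibroblasts and mural cells are themselves members of these lists, so their values are not separate evidence. Of 7 fibroblast markers, 4 reached the floor on the WT array and 5 on the array labelled Bid-/-, their summed log2 level was 32.7 and 38.9, and the median difference was 0.87. With LPS the sums were 36.9 and 37.8. Lum and Postn were below the floor on both untreated arrays. Of 7 mural markers, 3 reached the floor on each untreated array, with sums of 29.4 and 31.4, and Cnn1, Rgs5, Cspg4 and Des were below it on both. The part of other cells in the stromal differences was not tested. Endothelial markers had 2 of 5 members at the floor on both arrays, with sums of 20.1 and 20.8.

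**Figure D2:**
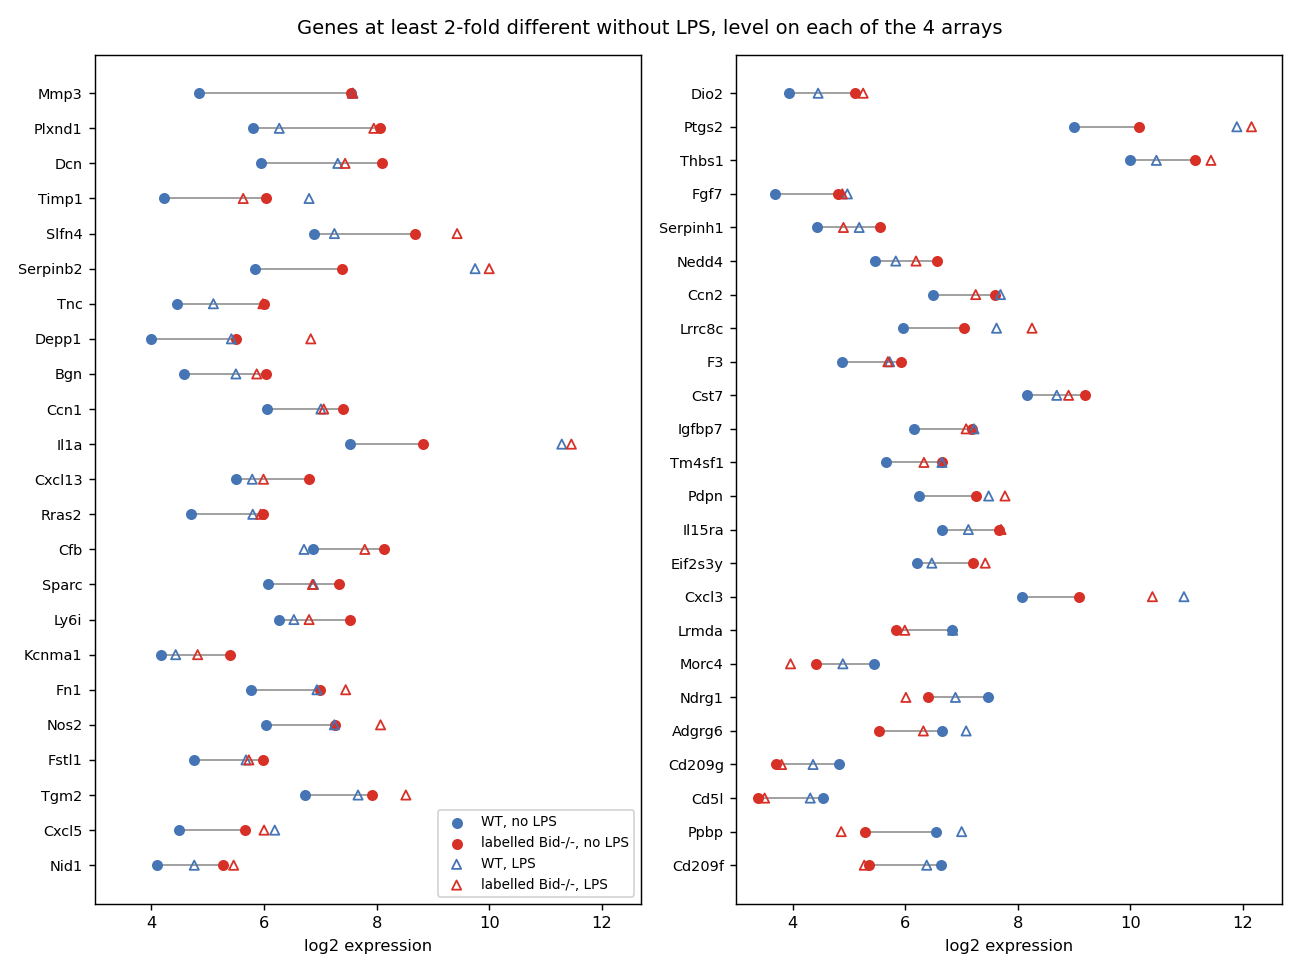
Log2 expression (horizontal axis) of the 39 genes at least 2-fold higher and the 8 at least 2-fold lower without LPS, on each of the 4 arrays. Filled circles are the untreated arrays, joined by a line, and open triangles are the arrays with LPS; blue is WT and red is labelled Bid-/-. For Mmp3 both triangles lie on the red circle near 7.6, while for Plxnd1 and Slfn4 the blue and the red symbols stay apart in both pairs.

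Metalloproteinases and their inhibitors held the single largest difference. Stromelysin 1 (Mmp3), a secreted protease that degrades matrix proteoglycans and activates other metalloproteinases, was at 4.85 on the WT array and at 7.54 on the array labelled Bid-/-. With LPS it was at 7.58 and 7.57. The WT array without LPS was therefore alone in its low value, and the difference was 2.69 without LPS and -0.01 with it. Timp1, the inhibitor of metalloproteinases, was at 4.22 and 6.03 without LPS and at 6.80 and 5.63 with LPS, which gives 1.81 and -1.17. The gelatinase Mmp2, abundant in mesenchymal cells, was higher by 0.88 without LPS and by 0.05 with it. Mmp9, the gelatinase of myeloid cells, was lower in both pairs, at 8.08 and 7.13 without LPS and 8.38 and 7.60 with it. Over the 17 members tested of 20 the median difference was 0.16. At a floor of 6 it was 0.27, but Mmp3, Timp1 and Mmp2 reached 6 on the array labelled Bid-/- alone and so had to be above 0. At least 1.5-fold higher were 3, beside 1.45% of all genes, and 1 was lower, beside 0.44%. Timp1 and Timp3 reached the floor of 4.26 on the array labelled Bid-/- alone.

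The promoters of Mmp3 and Il1a are shown because both genes were in the 2-fold group and carry a match to the AP-1 motif, the element bound by Fos and Jun proteins. The sequences are the 250 bases before the RefSeq transcript start on assembly GRCm38.p6, chr9:7445572-7445821 on the plus strand for Mmp3 and chr2:129309973-129310222 on the minus strand for Il1a. Each is written 5′ to 3′ in the direction of transcription, and capitals mark the match to TGANTCA, which begins at -46 in Mmp3 and at -12 in Il1a, counting the base before the start as -1.
Mmp3: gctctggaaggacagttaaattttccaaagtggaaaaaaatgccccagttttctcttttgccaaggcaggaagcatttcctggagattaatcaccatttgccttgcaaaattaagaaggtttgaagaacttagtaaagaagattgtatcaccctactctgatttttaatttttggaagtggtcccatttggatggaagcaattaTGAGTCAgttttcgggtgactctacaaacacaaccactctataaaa
Il1a: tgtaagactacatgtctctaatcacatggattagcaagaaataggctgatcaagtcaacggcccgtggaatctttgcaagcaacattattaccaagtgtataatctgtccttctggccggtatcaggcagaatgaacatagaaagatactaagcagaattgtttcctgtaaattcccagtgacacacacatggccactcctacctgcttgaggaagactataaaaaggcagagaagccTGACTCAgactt

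A RefSeq promoter was found for 30 of the 39 genes at least 2-fold higher, 34 promoters in all. TGANTCA, searched on both strands, was present in 8 of the 34 (23.5%), belonging to 7 genes (F3, Il15ra, Il1a, Mmp3, Nedd4, Serpinb2 and Slfn4). It was present in 6.75% of all 32851 promoters of this length and in 4.45% of the 11141 promoters of genes tested. The NF-kB motif, searched as GGGA, any 2 bases and TTCC, was in 3 of the 34 (8.82%), beside 1.21% of all and 1.25% of those tested. Those 3 belonged to Cxcl3, Lrrc8c and Tm4sf1. The interferon motifs described below were near the share of all promoters. Their response element was in 1 of the 34 (2.94%, beside 2.98%) and the gamma-activated site in 2 (5.88%, beside 7.02%). A match is a string of letters and not evidence of binding.

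Genes of the inflammatory response were next. Of 20 cytokines and growth factors tested (26 listed), 14 were above 0, beside 51.6% of all genes. The median was 0.40, and 0.23 over the 10 members at a floor of 6. At least 1.5-fold higher were 5, Inhba among them, beside 1.45% of all genes, and 0 were lower, beside 0.44%. Inhba, Il12b and Lif reached the floor on the array labelled Bid-/- alone and so had to be above 0; of the 17 members at the floor on both arrays 11 were above 0, with a median of 0.32, and of all 26 members measured 17 were. Interleukin 1 alpha (Il1a), an alarm cytokine, was at 7.52 and 8.83 without LPS and at 11.29 and 11.46 with LPS, a difference of 1.31 and then 0.17. Its natural antagonist Il1rn was higher in both pairs, at 5.69 and 6.50 without LPS and 7.31 and 7.98 with it. Inhba, a subunit of activin, was higher by 0.80 and 0.71, and the TNF family ligand Tnfsf15 by 0.71 and 0.63. Interleukin 6 (Il6), a main pro-inflammatory cytokine, was at 7.01 and 7.70 without LPS, and at 11.48 and 11.38 with it. Tumour necrosis factor (Tnf) and the anti-inflammatory Il10 were below 0, Tnf at 9.42 and 9.12 and Il10 at 6.25 and 5.76. The list therefore held values of both signs, and the interleukin 1 genes Il1a (1.31), Il1rn (0.81) and Il1b (0.49) were all above 0.

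Among the enzymes and effectors of inflammation 17 of 19 tested members were above 0, beside 51.6% of all genes, and 9 were at least 1.5-fold higher, beside 1.45%, with a median of 0.35; 2 were below 0, beside 45.8% of all genes. Inducible nitric oxide synthase (Nos2) was at 6.04 and 7.26 without LPS and at 7.25 and 8.07 with LPS. The arginine transporter Slc7a2, which supplies its substrate, was at 5.86 and 6.81, then at 9.43 and 10.46. Both were higher on the array labelled Bid-/- in each pair, Nos2 by 1.22 and 0.82 and Slc7a2 by 0.95 and 1.03. Prostaglandin synthesis was represented by cyclooxygenase 2 (Ptgs2), at 8.99 and 10.15 without LPS and 11.89 and 12.15 with it, and by prostaglandin E synthase (Ptges), higher by 0.74 and 0.09. The plasminogen activator inhibitor Serpinb2 stood at 5.84 and 7.39 without LPS and at 9.75 and 10.00 with it. Tissue factor (F3), which starts coagulation, was higher by 1.05 without LPS and at -0.03 with it. Haptoglobin (Hp), the oxysterol enzyme Ch25h and histidine decarboxylase (Hdc) were higher by 0.75, 0.71 and 0.69 without LPS, and of these Hdc alone was past 1.5-fold with LPS, at 0.65.

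Chemokines lay on both sides of 0. Of 22 tested, 15 were above 0, beside 51.6% of all genes, and the median was 0.19. At least 1.5-fold higher were 5, beside 1.45%, and 2 were lower, beside 0.44%. The B cell attractant Cxcl13 was at 5.51 and 6.80 without LPS and at 5.79 and 5.99 with it. The neutrophil attractants Cxcl5 and Cxcl3 were higher by 1.18 and 1.00 without LPS, and lay at -0.19 and -0.56 with it. Their relatives Cxcl2 and Cxcl1 were at 0.52 and 0.49, the interferon-induced Cxcl10 at 0.70 and the monocyte attractant Ccl2 at 0.62. On the lower side, pro-platelet basic protein (Ppbp) was at 6.54 and 5.28 without LPS and at 7.00 and 4.86 with it, lower by -1.26 and -2.14. Platelet factor 4 (Pf4) was at 9.23 and 8.75, a difference of -0.48, and at -1.47 with LPS. The macrophage chemokines Ccl4 and Ccl9 were at -0.63 and -0.51. Among chemokine receptors, Ccrl2 was higher by 0.82 and Ccr3 lower by -0.82.

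**Figure D3:**
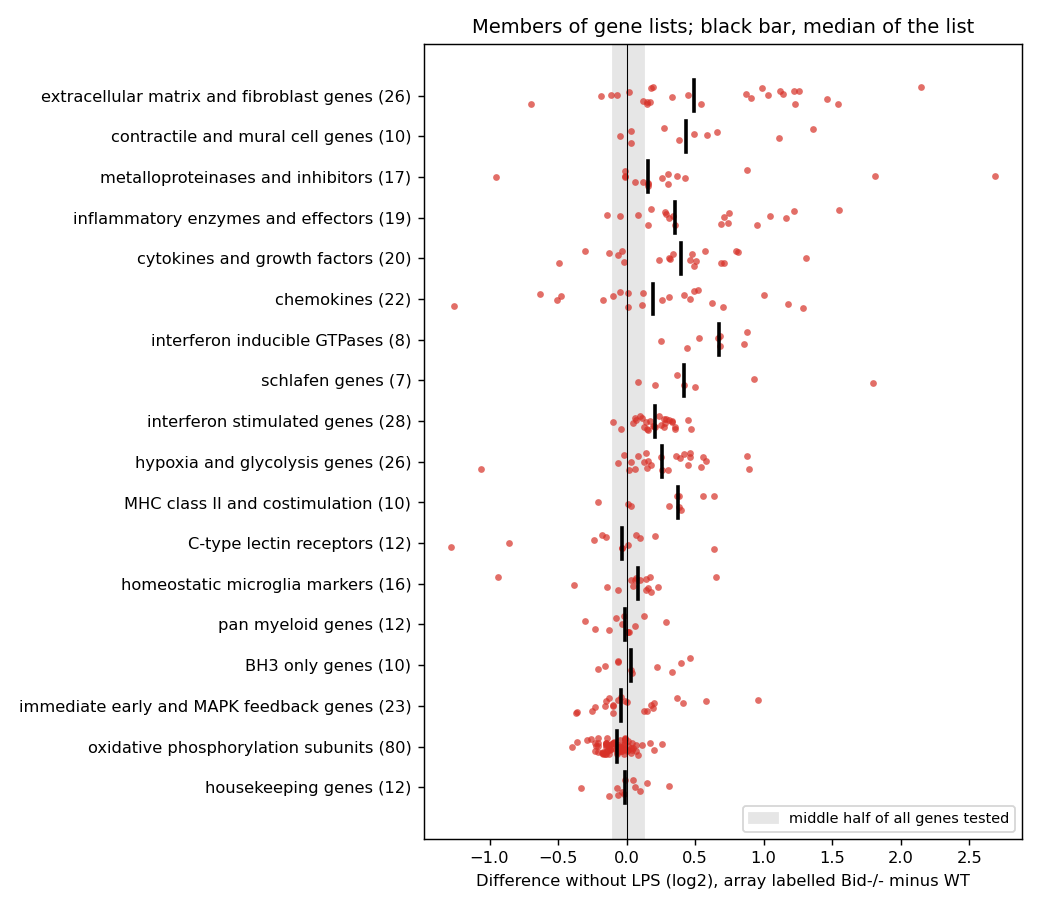
Each red point is the difference without LPS (horizontal axis, log2, array labelled Bid-/- minus WT) of 1 member that was tested, for 18 gene lists with the number of tested members in brackets; the black bar is the median of the list and the grey band the interquartile range of all genes, from -0.10 to 0.13. The medians of the matrix, mural, enzyme, cytokine, GTPase and schlafen lists lie to the right of the band, at 0.35 to 0.68, and those of pan-myeloid, BH3-only and housekeeping genes lie inside it.

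Interferon-inducible GTPases were higher as a group, in a narrow range. These proteins (guanylate-binding proteins and immunity-related GTPases) attack the vacuoles of intracellular pathogens. Of 14 members listed 8 were measured, and the values cover these alone. All 8 were tested and above 0, beside 51.6% of all genes, with a median of 0.68. At least 1.5-fold higher were 5, beside 1.45%. Iigp1 was at 7.19 and 8.07 without LPS and at 5.61 and 6.93 with it, higher by 0.88 and 1.32. Gbp5 was at 6.50 and 7.36, then at 8.10 and 8.62, higher by 0.86 and 0.52. Gbp3 stood at 8.50 and 9.17 without LPS and at 8.59 and 9.22 with it. The differences of Gbp4 were 0.68 and 1.11, of Gbp8 0.68 and 0.45, of Gbp7 0.53 and 1.02, of Gbp9 0.44 and 0.73, and of Irgm1, which regulates the other immunity-related GTPases, 0.25 and 0.40. The 8 genes were also above 0 (50.9% of all genes) in the pair with LPS, which shares no array with the untreated pair, with the same median of 0.68. Guanylate-binding protein genes are near-identical copies in part, so a probe set may also read a relative, and the values of single members are uncertain to that extent.

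The promoters of Gbp5, Gbp7 and Irgm1 are shown because their group was higher in both pairs and because the elements through which interferons act on genes can be read in them. They lie at chr3:142496684-142496933 (plus strand, Gbp5), chr3:142530086-142530335 (plus strand, Gbp7) and chr11:48871421-48871670 (minus strand, Irgm1) of GRCm38.p6, again as the 250 bases before the RefSeq start. Capitals mark matches to the interferon-stimulated response element, searched as GAAA, any 2 bases and GAAA, and to the gamma-activated site, searched as TTCNNNGAA, on both strands. With the base before the start counted as -1, the response element of Gbp5 begins at -165 and its gamma-activated sites at -245 and -52. In Gbp7 the response element begins at -53 and the gamma-activated sites at -106 and -87. In Irgm1 a pair of overlapping response elements begins at -30 and -24.
Gbp5: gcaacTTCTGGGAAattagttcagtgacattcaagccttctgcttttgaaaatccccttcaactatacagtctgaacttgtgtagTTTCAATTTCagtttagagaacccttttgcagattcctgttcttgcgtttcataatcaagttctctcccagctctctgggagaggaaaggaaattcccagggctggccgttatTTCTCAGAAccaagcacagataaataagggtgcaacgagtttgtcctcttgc
Gbp7: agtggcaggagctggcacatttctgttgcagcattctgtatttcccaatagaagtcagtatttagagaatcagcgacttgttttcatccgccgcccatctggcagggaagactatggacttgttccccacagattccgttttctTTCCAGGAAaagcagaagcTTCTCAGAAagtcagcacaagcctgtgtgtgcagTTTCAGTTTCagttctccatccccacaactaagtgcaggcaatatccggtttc
Irgm1: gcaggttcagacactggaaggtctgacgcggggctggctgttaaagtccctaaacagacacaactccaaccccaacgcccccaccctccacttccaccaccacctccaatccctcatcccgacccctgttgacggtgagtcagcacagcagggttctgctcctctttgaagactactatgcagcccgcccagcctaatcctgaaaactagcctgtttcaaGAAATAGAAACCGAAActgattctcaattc

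The RefSeq table held promoters for 4 of the 8 GTPase genes (Gbp3, Gbp5, Gbp7 and Irgm1), 5 promoters in all, and the response element was in 4 of the 5, at least 1 for each gene. It was in 2.98% of all 32851 promoters. TTCNNNGAA was in 2 of the 5, beside 7.02% of all. TGANTCA was in 1 of the 5 (Irgm1), beside 6.75% of all, and the NF-kB motif in 1 (Gbp5), beside 1.21%. Of 8 promoters of 7 schlafen genes, 4 held the response element, those of Slfn5, Slfn8 and Slfn9, and 0 held TTCNNNGAA. TGANTCA was in 1 of the 8 (Slfn4) and the NF-kB motif in 0.

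Schlafens, a family linked to growth control and limits on translation in immune cells, included one of the highest genes. Slfn4, a myeloid member, was at 6.89 and 8.69 without LPS and at 7.25 and 9.43 with LPS, higher by 1.80 and 2.18. Slfn1 was at 8.32 and 9.25, then at 8.08 and 9.18. For both genes the arrays labelled Bid-/- were the higher ones in each pair. All 7 members tested were above 0, beside 51.6% of all genes, with a median of 0.42, Slfn9 at 0.50, Slfn8 at 0.42, Slfn3 at 0.37, Slfn5 at 0.21 and Slfn2 at 0.08. As with the GTPases, members of this family resemble each other in sequence.

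Most interferon-stimulated genes outside these families lay above 0. Of 28 tested, 26 were above 0, beside 51.6% of all genes, with a median of 0.21. None was at least 1.5-fold higher or lower, beside 1.45% and 0.44% of all genes. For a list of this size, 0 is near that share. The transcription factor Irf1 was at 0.47 and the antiviral GTPase Mx1 at 8.23 and 8.68, a difference of 0.45. With LPS Mx1 stood at 6.48 and 7.86. Oas1a (-0.10) and Irf9 (-0.04) were the members below 0. In the pair with LPS 21 of the 28 were above 0 and the median was 0.47, beside a median of 0.02 for all genes tested without LPS.

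**Figure D4:**
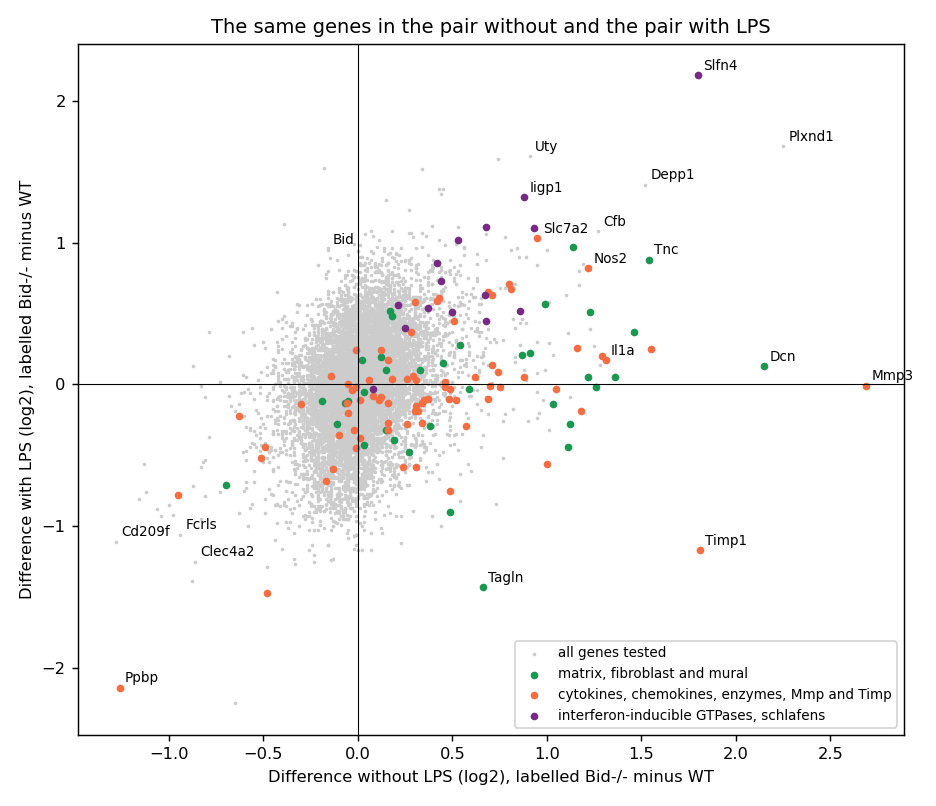
The difference with LPS (vertical axis, log2) is plotted against the difference without LPS (horizontal axis, log2) for the genes tested, both as the array labelled Bid-/- minus WT, from pairs that share no array. Green points are matrix, fibroblast and mural genes, orange points cytokines, chemokines, inflammatory enzymes, metalloproteinases and inhibitors, and purple points interferon-inducible GTPases and schlafens. Mmp3 and Dcn lie near 0 on the vertical axis, Timp1 and Tagln lie below it, and Slfn4 and Plxnd1 are far from 0 on both axes.

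Outside the stromal and inflammatory lists, 18 genes were at least 2-fold higher, Slfn4 among them. Plexin D1 (Plxnd1), a semaphorin receptor of vessel patterning, was at 5.81 and 8.06 without LPS and at 6.27 and 7.95 with LPS, higher by 2.25 and 1.68. Depp1, a target of FoxO factors that is tied to autophagy, was at 3.99 and 5.51, then at 5.42 and 6.83. Complement factor B (Cfb), a protease of the alternative pathway, was at 6.87 and 8.14 without LPS and at 6.71 and 7.79 with it. These genes and Slfn4 were at least 2-fold higher in both pairs, 4 of the 39, beside 0.326% of the genes tested with LPS. The GTPase Rras2 was higher by 1.28 without LPS and 0.14 with it, the potassium channel Kcnma1 by 1.23 and 0.39, and Ly6i, a surface protein of the Ly6 family, by 1.25 and 0.27. Transglutaminase 2 (Tgm2), a cross-linking enzyme, was higher by 1.19 and 0.85, the deiodinase Dio2, which activates thyroid hormone, by 1.17 and 0.80, and the basement membrane protein Nid1 by 1.17 and 0.70. Lrrc8c, a subunit of volume-regulated anion channels, was at 1.10 and 0.63, and the cystatin Cst7 at 8.16 and 9.19 without LPS and at 8.69 and 8.90 with it. The interleukin 15 receptor subunit Il15ra was at 1.01 and 0.58, podoplanin (Pdpn) at 1.01 and 0.29, and Fgf7, a growth factor for epithelium, at 1.12 and -0.09.

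Among the 8 genes at least 2-fold lower were surface and secreted proteins of macrophages. Cd209f, a C-type lectin, was at 6.64 and 5.36 without LPS and at 6.38 and 5.27 with it, lower by -1.28 and -1.11. Its relative Cd209g was at 4.83 and 3.70, and Cd5l, a secreted protein known as an apoptosis inhibitor of macrophages, at 4.54 and 3.38. Cd209f and Cd5l are in the list of monocyte and border macrophage markers, which held values of both signs. Of its 8 members tested 4 were above 0 and 4 below, with a median of -0.09. Those above were Fn1 at 1.23, Vcan at 0.85, F13a1 at 0.51 and Stab1 at 0.08. Ndrg1, a stress-responsive gene, was at 7.46 and 6.40 without LPS and at 6.89 and 6.01 with LPS. The adhesion receptor Adgrg6 was at 6.66 and 5.54, then at 7.08 and 6.32. Morc4 was at 5.45 and 4.41, and Lrmda at 6.83 and 5.83. All 8 were lower with LPS too, beside 47.8% of genes tested there, 7 of them at least 1.5-fold, beside 6.07%, and their median was -1.13 without and -0.87 with LPS.

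The C-type lectin list as a whole had a median of -0.03 over 12 of 17 members. At least 1.5-fold lower were 2, beside 0.44% of all genes, and 1 was higher, beside 1.45%. The inhibitory receptor Clec4a2 was at 8.50 and 7.64 without LPS and at 8.30 and 7.05 with it, whereas Clec4e, an activating receptor for fungal and mycobacterial glycolipids, was higher by 0.64 and 0.34. Fcrls, a microglia marker of the Fc receptor-like family, was at 11.53 and 10.59 without LPS and at 11.01 and 9.95 with it. It was the microglia marker farthest from 0. The purinergic receptor P2ry13 lay on the other side at 0.65, Tmem119 was at -0.38, the fractalkine receptor Cx3cr1 at 0.03 and the growth factor receptor Csf1r at 0.17. Over 16 of 20 homeostatic microglia genes the median was 0.09, and over 12 pan-myeloid genes it was -0.01.

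The genes at least 2-fold different without LPS were set beside the pair with LPS, as counts without a test. Of the 39 higher genes, 28 were above 0 with LPS, beside 50.9% of genes tested there, 12 were at least 1.5-fold higher, beside 4.69%, 4 at least 2-fold higher, beside 0.326%, and 18 were within 0.3 of 0. Their median was 1.22 without and 0.26 with LPS. By group, the 11 stromal genes had a median of 0.05 with LPS, the 10 inflammatory genes 0.08 and the other 18 genes 0.61, with 2, 1 and 9 genes at least 1.5-fold higher. The 1 inflammatory gene was Nos2. Over whole lists, the median with LPS was 0.14 for matrix, -0.36 for mural and 0.06 for inflammatory enzyme genes. It was -0.10 for cytokines, -0.17 for chemokines and -0.02 for metalloproteinases. In that order, 17 of 26, 1 of 10, 12 of 19, 7 of 20, 3 of 22 and 7 of 17 members were above 0 with LPS. Median levels of the 11 stromal genes were 5.94 and 7.18 without LPS and 6.94 and 7.06 with it. Across the 10627 genes at the floor in both pairs, Pearson's r between the differences was 0.343 and Spearman's rho 0.334. This is a description across genes, which are not independent. Genotype label and platform are common to both pairs, and no strain is named for the arrays labelled Bid-/-.

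An additive limma fit of genotype and LPS over all 4 arrays, with 1 residual degree of freedom, tests the mean genotype difference over both pairs. It does not test whether the difference was alike in both pairs. With Benjamini-Hochberg adjustment it called 0 of 11326 genes at 0.05, while 709 had an unadjusted p under 0.05, and the smallest adjusted p was 0.623. The fitted differences with their standard errors were 1.99 ± 0.172 for Slfn4, 1.97 ± 0.195 for Plxnd1, 1.47 ± 0.109 for Depp1, -1.20 ± 0.120 for Cd209f and -0.95 ± 0.129 for Kcnn4. For Mmp3, which differed in the untreated pair alone, it was 1.34 ± 0.682. After quantile normalization of the deposited values the same fit called 39 of 11308 genes, 24 higher and 15 lower, so the number of calls depends on that step.

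Genes around Bid on chromosome 6 are given because cells bred from an altered allele can carry flanking sequence of another strain, whose part in these values was not tested. Of the 10 measured protein-coding genes on each side, 13 of 20 were tested; their median was 0.09, from -0.28 (Atp6v1e1, a proton pump subunit) to 0.39 (the interleukin 17 receptor Il17ra), and 0 were at least 1.5-fold different. The nearest neighbours Bcl2l13 and Mical3 were at 0.13 and -0.18. Of 50 genes on each side, 58 of 100 were tested with a median of 0.00; 3 were at least 1.5-fold higher, beside 1.45% of all genes, and 1 was lower, beside 0.44%. These were Plxnd1 (2.25) and Depp1 (1.52), 48 and 36 measured genes before Bid, and Clec4e (0.64) and Clec4a2 (-0.86), 31 and 27 genes after it.

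**Figure D5:**
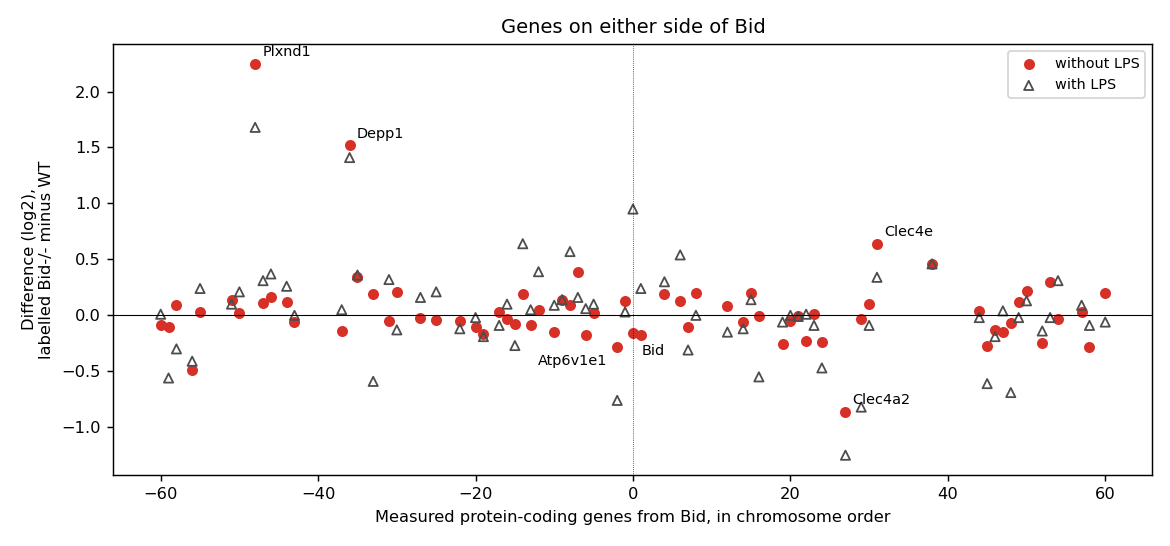
Difference (vertical axis, log2, array labelled Bid-/- minus WT) of tested genes around Bid, ordered by their place among measured protein-coding genes on chromosome 6 (horizontal axis, number of genes from Bid, up to 60 on each side). Red circles are the pair without LPS and open triangles the pair with LPS. Plxnd1 and Depp1 stand apart on the left, while the 10 nearest genes on each side lie between -0.28 and 0.39 without LPS.

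Genes linked to sex and strain were read beside these results. The Y-linked genes Eif2s3y, Uty and Kdm5d had differences of 1.00, 0.91 and 0.63 in the untreated pair and of 0.95, 1.61 and 0.92 in the pair with LPS. Xist, the RNA of the inactive X chromosome, was at 8.05 and 7.73 without LPS and at 8.24 and 8.27 with it, and Xist and the Y-linked genes were above the floor on all 4 arrays. The mitochondrial transhydrogenase Nnt, which is disrupted in a widely used inbred substrain, was at 7.36 and 6.55 without LPS and at 6.71 and 5.92 with LPS. Over the 8 sex-linked genes tested the median was 0.04, but it pools the Y-linked genes with Xist and X-linked genes. At least 1.5-fold higher were 3, the Y-linked genes, beside 1.45% of all genes, and 0 were lower, beside 0.44%. The other members ran from -0.32 (Xist) to 0.09 (Kdm6a). The other strain-variable genes tested were Nlrp1b at 0.27, Casp4 at 0.19 and Entpd4 at 0.04. The part of sex or strain in the other differences was not tested.

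The pathway that Bid belongs to was read as BH3-only genes (10 tested), multidomain Bcl-2 genes (7), and death receptors, caspases and adaptors (20). None of these genes was at least 1.5-fold higher or lower, beside 1.45% and 0.44% of all genes. For lists of this size, 0 is near that share. The medians were 0.04, 0.02 and 0.07, beside 0.01 over all genes. The mitophagy receptors Bnip3 (0.46) and Bnip3l (0.40) were the highest BH3-only members and the p53 target Pmaip1 (-0.21) was the lowest. Caspase 2 (Casp2) was at 5.26 and 5.81, and the death receptor Fas at 6.60 and 7.01. Caspase 8 (Casp8), which cleaves Bid, was at 8.47 and 8.63. Of 23 tested Toll-like receptor and signalling genes none was at least 1.5-fold different, again near the share of all genes, and the median was 0.07. Among 19 NF-kB subunits and feedback genes, 4 were at least 1.5-fold higher, beside 1.45% of all genes, led by the adaptor Traf1 at 0.77. The nuclear IkB protein Nfkbiz, at -0.68, was the 1 lower gene, beside 0.44%.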

How the data were processed

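The authors deposited 1 table of values for 28944 probe sets on 4 arrays. To make the deposited log2 values the authors list RMA, Partek 6.2 and Affymetrix Expression Console, without saying which did what, per the submitters' processing notes. The file states no log base, and log2 was taken from the range (1.4 to 13.5, with 2 decimals), so folds depend on it. RMA makes arrays share a distribution, so a shift common to all genes would not be seen. By the platform annotation 21789 probe sets have 1 symbol, 1621 have several and 5534 have none; 21698 matched RefSeq (GRCm38.p6) by Entrez identifier and 0 symbols changed. For 999 genes with several probe sets, the brightest by 4-array mean was taken.

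Counts of genes use the floor of 4.26 and folds of 2 and 1.5. limma 3.58.1 (R 4.3.3) gave the additive fit and was tested on simulated data. The residual of this fit is the gap between the genotype differences of both pairs, moderated across genes. As labels name no separate cultures, its p-values do not measure spread between cultures. Named genes were Bid and its neighbours, the 25 highest and 15 lowest differences, up to 5 highest and 5 lowest members of each of 48 gene lists, defining markers, and sex-linked and strain-variable genes. Members, lists and rules were chosen with earlier results of these data known. Genes named otherwise were chosen after their values were seen. Motifs were searched in RefSeq promoters. Alternatives changed the floor, the probe set rule, the normalization and the fold. The number of arrays limits the precision.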

Additional observations from a re-analysis of the deposited data

Results flagged for a closer look

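For 4 genes the array labelled Bid-/- exceeded WT by 1.5-fold or more without LPS and fell short of it by 1.5-fold or more after LPS, on pairs that share no array. With 1 array per group the difference between both pairs was not tested. Timp1, the metalloproteinase inhibitor, was at 1.81 without LPS and -1.17 with it. S100a6, a calcium-binding protein of proliferating and mesenchymal cells, was at 0.73 and -0.84, from levels of 4.47 and 5.20 without LPS and 5.54 and 4.70 with it. The smooth muscle protein Tagln was at 0.66 and -1.43. Cnn3, a calponin that binds actin, was at 0.60 and -0.61, from levels of 5.09 and 5.69, then 5.63 and 5.02.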

How the results depend on the processing

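Of the genes counted, 39 were at least 2-fold higher and 8 lower without LPS; every alternative floor, probe set rule and scaling left between 29 and 39 higher and between 5 and 9 lower, with 80% to 85.3% of them higher. A stricter floor of 6 left 5 lower genes, and a fold of 1.5 gave 158 higher and 48 lower. Without a floor the median of the cytokine list was 0.28, of the matrix list 0.39 and of the mural list 0.30. With the stricter floor the medians were 0.23 for cytokines, 0.52 for inflammatory enzymes, 1.085 for matrix genes (12 members) and 0.80 for mural genes (4 members). This floor acts on the higher of both arrays, so a rise under it can come from the filter. The enzyme genes Serpinb2, Slc7a2 and Hdc and the matrix genes named above reached 6 on the array labelled Bid-/- alone. Among cytokines Il1rn did so on that array and Il10 on the WT array. The neuron list went from 0.19 on the 1 gene tested to -0.07 on 11 genes without a floor. The additive fit called 39 genes after quantile normalization and 0 otherwise. Removing the trends of the difference with intensity and gene span together, chosen after seeing the data, left 36 higher and 8 lower. Over all alternatives 308 list medians stayed within 0.1 of their value and 17 did not. In 14 cases, from 10 lists, the median changed sign, all with values within 0.19 of 0; besides neurons these include monocytes and border macrophages (-0.09 to 0.08), endothelium (-0.04 to 0.14 without a floor), BH3-only genes (0.04 to -0.06 at the stricter floor), and pan-myeloid and housekeeping genes under removal of trends. Of the single named genes 1736 values stayed and 6 moved. No paired analysis was possible because each group has 1 array and the labels carry no replicate numbers; for the same reason no array could be left out. Low levels near the floor limit what can be read for dim genes.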

Other observations

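Oxygen and glucose metabolism was a further group. Of 26 hypoxia and glycolysis genes tested 23 were above 0 without LPS, beside 51.6% of all genes, with a median of 0.26. At least 1.5-fold higher were 2, beside 1.45% of all genes, and 1 was lower, beside 0.44%. The angiogenic factor Vegfa was at 6.28 on the WT array and 7.17 on the array labelled Bid-/-, and at 6.47 and 6.90 with LPS. The oxygen sensor Egln3 was higher by 0.88 without LPS and 0.10 with it. The transcription factor Hif1a (0.58 and 0.54), the endoplasmic oxidase Ero1a (0.56 and 0.56) and the glycolytic regulator Pfkfb3 (0.54 and 0.77) had like values in both pairs, whereas Ndrg1, which is in the same list, was lower by -1.06 and -0.88.

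Of 10 genes of antigen presentation and costimulation tested 9 were above 0, beside 51.6% of all genes, but H2-DMa and H2-Ob reached the floor on the array labelled Bid-/- alone. Of the 8 members at the floor on both arrays 7 were above 0, with a median of 0.34; H2-Aa, below the floor on both, was at -0.30. The costimulatory ligand Cd86 was at 0.64 without LPS and 0.51 with it, and the inhibitory ligand Cd274 at 0.56 and 0.97. Oxidative phosphorylation subunits lay slightly below 0, with 64 of 80 members below 0 (45.8% of all genes) and a median of -0.07. None was at least 1.5-fold higher or lower, beside 1.45% and 0.44% of all genes, which is near that share for a list of this size. With LPS the median of the subunits was -0.66. Ribosomal protein genes had a median of -0.04 over 58 members without LPS and of -0.55 with it. Housekeeping genes had a median of -0.02 over 12 members.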
